A study of Mus musculus with 71 samples.

Results

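Levels of 10 genes of chromosome segregation (Top2a, Birc5, Aurka, Aspm, Bub1, Bub1b, Tpx2, Cenpe, Ccna2 and Ube2c) were followed across mouse oocytes made in culture, gene knockouts, directly induced oocyte-like cells and oocytes from the animal. The genes were chosen by symbol, and all 10 were found among the 15140 genes of the deposited table that could be used. All 10 also passed the filter on low values in every fit. They are protein-coding genes on chromosomes 1 (Aspm), 2 (Aurka, Bub1, Bub1b, Tpx2 and Ube2c), 3 (Cenpe and Ccna2) and 11 (Top2a and Birc5).

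RNA levels were given as TPM, a transcript's share of a library corrected for gene length, which gives each library the same nominal total. The genes that could be used held 52.1% to 70.8% of that total, depending on the library. In vitro oocytes, of a C57BL/6 X 129 background with the reporters Blimp1-Venus and Stella-CFP, grew from stem cell-derived germ cells inside aggregates with embryonic gonadal somatic cells, and were sorted as SC+ oocytes, a gate that the labels do not spell out. The knockout groups, 4 of day 11 (Lhx8, Figla, Stat3, Sub1) and 15 of day 13 (Nobox, Sohlh1, Tbpl2, Dynll1, Ybx3, Ccnk, Kdm1b, Thap7, Noto, Foxr1, Mef2b, Sfr1, Hes6, Ell3, Tcf25), carry the same reporters as the wild-type (WT) oocytes of days 11 and 13 they are set against. The labels do not give the number of clones behind a knockout. Matured oocyte-like cells at metaphase II (MII DIOL), oocyte-like cells of days 1, 3, 5, 7 and 14 (DIOLs.S) and of days 5, 10, 15 and 25 (DIOLs) came from stem cells with the genotype label MGA8 that were induced with Shield1, a compound that stabilises tagged proteins. The S is not explained in the labels. For MII DIOL the protocol adds embryonic gonadal somatic cells, isolation of follicles, growth and maturation in vitro. Germinal vesicle (GV) oocytes from the animal, with the same strain and reporter labels as the in vitro oocytes, are labelled comp and incomp, read here as competent and incompetent to resume meiosis. Their column names add 3w for all competent and 2w for all incompetent libraries, which the labels do not explain. Each group held 2 libraries, and each GV group held 3, so that 68 libraries in 33 groups were used. The labels do not say that libraries of a group came from separate cultures or animals, so p-values rest on the spread between libraries. That spread was shared over all groups of a fit and is not that of the 2 groups compared alone. TPM keeps no record of read depth, so no counting error can be given.

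In dividing cells these genes act between DNA synthesis and the separation of chromosomes. Top2a encodes the topoisomerase that unlinks replicated DNA, and Ccna2 encodes cyclin A2, which drives S phase and entry into mitosis. Aurka, Tpx2 and Aspm build the spindle poles, Birc5 (survivin) targets the chromosomal passenger complex, Bub1, Bub1b and Cenpe work at the kinetochore and its checkpoint, and Ube2c is the ubiquitin-conjugating enzyme of the anaphase-promoting complex. A growing oocyte does not divide. It stores mRNA for the meiotic spindle, much of it silent until maturation, when poly(A) tails of stored mRNAs are lengthened or shortened.

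Many promoters of mitotic genes carry the CCAAT box, to which the factor NF-Y is known to bind, so the windows of 4 members whose levels moved in unlike ways are shown. RefSeq windows (build GRCm38.p6) were at hand for 8 of the 10 genes, all but Tpx2 and Ccna2. They are printed 5′ to 3′ on the gene's strand from base -250 to base -41 relative to the annotated start, with CCAAT or its reverse complement ATTGG in capitals. Top2a lies at chr11:99024230-99024439 on the minus strand, Ube2c at chr2:164769679-164769888, Birc5 at chr11:117848987-117849196 and Bub1b at chr2:118597961-118598170, these 3 on the plus strand.
Top2a: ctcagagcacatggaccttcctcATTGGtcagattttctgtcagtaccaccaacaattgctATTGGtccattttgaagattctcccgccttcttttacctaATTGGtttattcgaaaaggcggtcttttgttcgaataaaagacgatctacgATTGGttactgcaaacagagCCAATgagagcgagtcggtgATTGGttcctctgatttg
Ube2c: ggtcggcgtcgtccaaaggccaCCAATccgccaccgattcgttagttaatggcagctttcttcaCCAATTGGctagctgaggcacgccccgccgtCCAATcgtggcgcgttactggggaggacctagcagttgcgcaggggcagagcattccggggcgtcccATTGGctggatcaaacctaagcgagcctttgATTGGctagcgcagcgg
Birc5: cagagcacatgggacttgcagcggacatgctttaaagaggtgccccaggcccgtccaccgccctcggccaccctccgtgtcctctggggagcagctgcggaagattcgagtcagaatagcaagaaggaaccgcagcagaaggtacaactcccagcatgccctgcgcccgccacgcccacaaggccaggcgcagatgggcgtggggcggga
Bub1b: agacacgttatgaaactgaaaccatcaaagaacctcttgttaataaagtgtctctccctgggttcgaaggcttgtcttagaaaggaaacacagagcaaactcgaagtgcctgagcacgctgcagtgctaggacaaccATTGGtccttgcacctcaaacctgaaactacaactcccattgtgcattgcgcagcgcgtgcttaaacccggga
Top2a and Ube2c each held 6 matches, of which a pair overlaps in Ube2c. Bub1b held 1 match and Birc5 held 0. Over both strands 6 of the 8 members had the motif, against 29.9% of the 32851 windows of the same length, and 7 of those windows (0.0213%) held 6 or more. TTTGAA, the cell cycle homology region of mitotic promoters, was searched on both strands in the same way and was found in Top2a alone of the 8, against 14.1% of all windows. A match describes letters and not a bound site. Bases between the end of these windows and the annotated start were not searched. A window with no match thus does not show that a promoter lacks the motif.

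Across the 33 groups the 10 genes did not share a pattern of levels. Group means of Top2a spanned 4.44 to 540 TPM, a 122-fold range, while those of Tpx2 spanned 31.6 to 289 TPM, a 9.14-fold range. The highest mean of Top2a was in DIOLs.S of day 1, followed by the Stat3 knockout, and these groups overlapped. Birc5 was highest in DIOLs.S of day 14, Ube2c in the same group at 1437 TPM, and Bub1 in the Stat3 knockout at 397 TPM. Bub1b (1914 TPM), Tpx2 (289 TPM), Cenpe (218 TPM) and Ccna2 (709 TPM) were all highest in MII DIOL, and there the next group did not overlap. Aurka (459 TPM) and Aspm (266 TPM) were highest in competent GV oocytes, where Aspm overlapped incompetent ones. At the other end, MII DIOL held the lowest mean of Top2a, Birc5 (37.3 TPM), Bub1 (9.19 TPM) and Ube2c (43.9 TPM). When the groups were ordered by mean, 18 to 25 of the 32 neighbouring pairs overlapped for each gene, so most neighbours in these orders could not be separated.

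**Figure D1:**
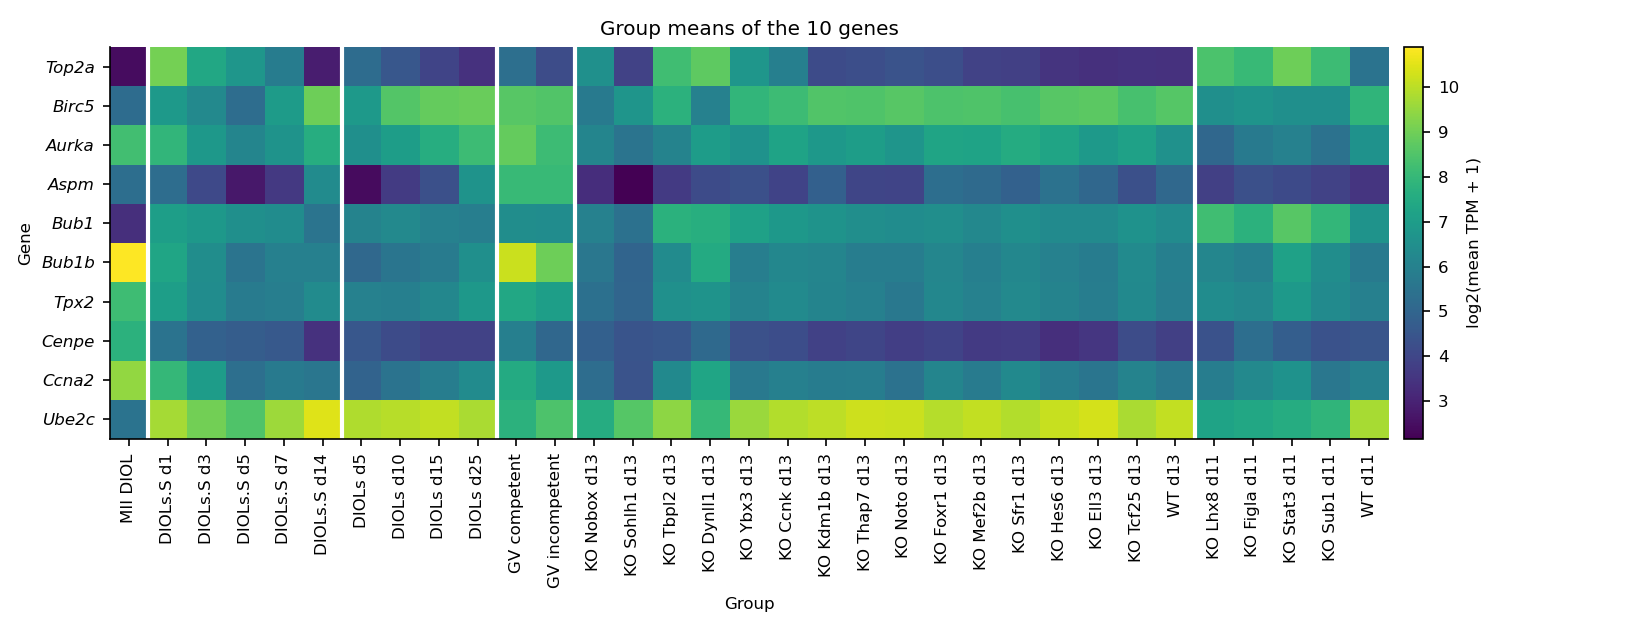
Group means of the 10 genes as log2(mean TPM + 1), with groups along the horizontal axis (KO, knockout; WT, wild type) and genes down the page. Bub1b, Cenpe and Ccna2 are brightest in MII DIOL, where Top2a, Birc5, Bub1 and Ube2c are darkest.

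Replicate libraries correlated at 0.967 to 0.998 over all genes, except those of the Sohlh1 knockout at 0.873, whose macrophage marker sums were 21.3 and 3093 TPM. Of the 19 targeted genes 12 were in the table, and 11 were below wild type in their own libraries. Ccnk was not, at 1.01 times its wild-type level, and Sub1 reached 0.711 times its level, so those groups are named by label here. Thap7 (0.592 times) and Sfr1 (0.530 times) were only partly lower in their own libraries. RNA of the 7 targets not in the table could not be checked. A gene was called changed at a Benjamini-Hochberg adjusted p under 0.05 in limma, adjusted over all genes of a comparison, and an absolute change of at least 1 on the log2(TPM + 1) scale, which understates changes of low genes. In bulk RNA, fewer cells of a type and less RNA per cell cannot be told apart. Because TPM is relative, a rescaling by the median of ratios was run beside it, and calls that it decides are given, with the shift between both scales for comparisons with wild type and between stages.

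In wild-type oocytes of day 13 against day 11, 1 member fell, 1 rose and 8 were not called, where 22.0% of all genes were called. Top2a had 10.1 and 8.89 TPM on day 13, against 38.6 and 48.5 TPM on day 11. It fell by 2.08 ± 0.16 on the log2 scale (SE; limma, adjusted p = 7.6e-11), and the days did not overlap. Aspm, a spindle pole protein, had 34.3 and 32.4 TPM on day 13, against 9.79 and 10.8 TPM on day 11, a rise of 1.61 ± 0.23 (adjusted p = 4.0e-06). Birc5 averaged 383 ± 19.4 TPM on day 13 and 233 ± 3.30 TPM on day 11 (SD, n = 2 each), a change of 0.71 that became a call of 1.15 after rescaling, since the scales differ by -0.44 in this comparison. Ube2c averaged 1104 ± 81.2 TPM on day 13 and 863 ± 120.5 TPM on day 11 (log2 change 0.36). Markers of granulosa cells, the somatic cells around the oocyte, moved with this step: 8 of 9 tested were lower on day 13, and the sum of 10 was 32.1 to 32.2 TPM on day 13, against 841 to 883 TPM on day 11. Stroma markers summed to 9.51 to 12.2 TPM on day 13, against 511 to 545 TPM on day 11. Oocyte marker sums were 56257 to 57630 TPM on day 13, against 8012 to 8283 TPM on day 11. What part these markers had in the change of Top2a was not tested. Of 17 DNA replication genes tested, 1 rose and 1 fell.

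The 4 knockouts of day 11 are labelled Lhx8, Figla, Stat3 and Sub1, and all are set against the same 2 wild-type libraries. In each of them Top2a and Bub1 rose while Birc5 and Ube2c fell. Called higher were 2 members in the Lhx8 knockout (12.4% of all genes), 2 in the Figla knockout (18.6%), 3 in the Stat3 knockout (15.8%) and 2 in the libraries labelled Sub1 knockout (13.5%). Called lower were 3 members in the Lhx8 knockout (9.47% of all genes), 2 in the Figla knockout (9.52%), 2 in the Stat3 knockout (11.5%) and 3 in the libraries labelled Sub1 knockout (9.26%). The median change of the 10 genes was 0.11, 0.29, 0.65 and 0.14 in the same order, against 0.07, 0.20, 0.09 and 0.02 for all genes tested.

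Top2a had 351 and 336 TPM in the Lhx8 knockout, 262 and 267 TPM in the Figla knockout, 507 and 499 TPM in the Stat3 knockout, and 277 and 287 TPM in the libraries labelled Sub1 knockout, against 38.6 and 48.5 TPM in day 11 wild type. All 8 knockout libraries were above both wild-type libraries. Its log2 changes were 2.96, 2.59, 3.51 and 2.68 (SE 0.16 each), which are ratios of means of 7.89, 6.08, 11.6 and 6.48. The adjusted p-values (limma) lay between 8.1e-16 and 6.6e-13.

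Bub1 is a kinase of the spindle checkpoint at kinetochores. It had 317 and 283 TPM in the Lhx8 knockout and 212 and 223 TPM in the Figla knockout. The Stat3 knockout held 410.4 and 383 TPM, and the libraries labelled Sub1 knockout held 250.3 and 237 TPM. In wild type Bub1 had 113 and 87.0 TPM. It rose by 1.59, 1.13, 1.99 and 1.29 on the log2 scale (SE 0.13 each; limma, adjusted p 2.2e-12 to 1.1e-07), with no overlap. The Figla call was lost when the lower wild-type library, replicate 2, was left out (0.94), and also after rescaling (0.87, scale shift 0.26). Bub1b, which carries the checkpoint signal that holds back anaphase, rose in the Stat3 knockout to 141 and 142 TPM, against 52.5 and 50.3 TPM in wild type (log2 change 1.44 ± 0.28, adjusted p = 9.9e-05). In the other knockouts Bub1b changed by 0.24 to 0.73 and was not called. Cenpe, the kinetochore kinesin, had 39.2 TPM in both Figla knockout libraries, against 21.4 and 20.3 TPM in wild type, a change of 0.88 that missed the fold needed.

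Birc5 and Ube2c moved the other way. Birc5 had 84.0 and 99.0 TPM in the Lhx8 knockout, 106 and 99.4 TPM in the Figla knockout, 95.6 and 85.0 TPM in the Stat3 knockout and 85.4 and 97.0 TPM in the libraries labelled Sub1 knockout, against 235 and 231 TPM in wild type. Ube2c had 155 and 141 TPM, 173 and 165 TPM, 181 and 194 TPM, and 204 and 260.0 TPM in the knockouts in the same order, against 948 and 778 TPM in wild type. No knockout library reached a wild-type one for either gene. The log2 changes of Birc5 were -1.35, -1.17, -1.36 and -1.35 (SE 0.17 each), and the log2 changes of Ube2c were -2.53, -2.34, -2.19 and -1.89 (SE 0.10 each), with adjusted p-values (limma) of 4.2e-06 or less for Birc5 and 5.6e-14 or less for Ube2c.

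Of the spindle pole genes, Aurka was called lower in the Lhx8 knockout (25.8 and 40.1 TPM, against 99.5 and 96.1 TPM in wild type; fell by 1.57, adjusted p = 8.2e-05 in limma) and in the libraries labelled Sub1 knockout (43.8 and 42.2 TPM; fell by 1.17, adjusted p = 0.0019). It averaged 52.5 TPM in the Figla knockout and 63.5 TPM in the Stat3 knockout, and was not called there, although the Figla change became a call after rescaling (-1.15) and without Figla replicate 1 (-1.05). Tpx2, which activates Aurka on the spindle, changed by 0.26 to 0.94 and Aspm by 0.30 to 0.79, with no call in any of the 4. Ccna2 changed by -0.35 to 0.66, also with no call.

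**Figure D2:**
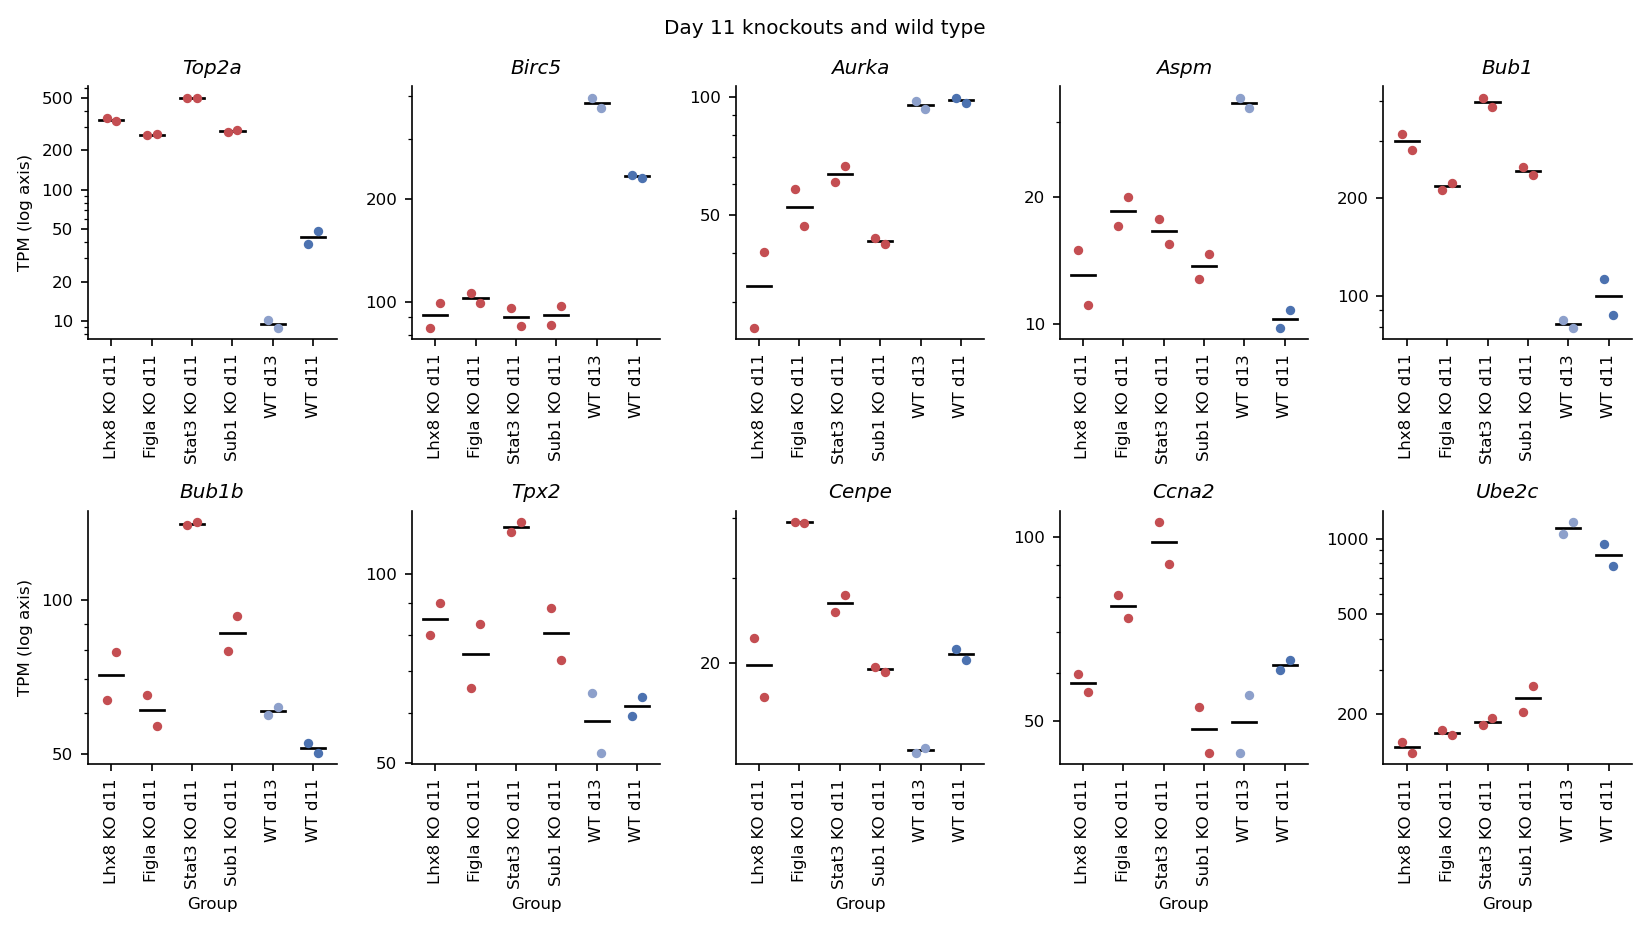
TPM of each library (points) and group mean (short lines) of the 10 genes on a log axis, in the 4 day 11 knockouts and wild type of days 13 and 11. Knockout points of Top2a and Bub1 lie above, and those of Birc5 and Ube2c below, both day 11 wild-type points.

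Set against each other, the 4 day 11 knockouts differed in few members. Over 6 pairs, Bub1b was called higher in the Stat3 than in the Figla knockout (1.21 ± 0.28; limma, adjusted p = 0.0012; 1 member, where 16.3% of all genes were called), and Ccna2 was called higher in the Stat3 knockout than in the libraries labelled Sub1 knockout (1.00 ± 0.18, adjusted p = 0.00028; 1 member, where 6.05% of all genes were called). The Ccna2 call was lost without replicate 1 of the Stat3 knockout or replicate 2 labelled Sub1, and after rescaling (0.95). No member was called between Stat3 and Lhx8 (3.85% of all genes), Lhx8 and Figla (11.9%), Lhx8 and Sub1 (5.60%) or Figla and Sub1 (15.8%), which does not show that these groups are alike. Without Lhx8 replicate 2, Aurka (1.27) and Bub1b (1.14) were called higher in the Stat3 than in the Lhx8 knockout, and without Lhx8 replicate 1, Cenpe was called lower in the Lhx8 than in the Figla knockout (-1.16). With a pseudocount of 0.1 Cenpe was called higher in the Figla knockout than in the libraries labelled Sub1 knockout (1.01), and after rescaling Top2a was called higher in the Stat3 than in the Figla knockout (1.03).

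Genes of other groups were called in the same libraries, where 21.9% of all genes were called in either direction in the Lhx8 knockout, 28.1% in the Figla knockout, 27.3% in the Stat3 knockout and 22.8% in the libraries labelled Sub1 knockout. Of 17 DNA replication genes, 2 rose and 3 fell in the Lhx8 knockout, 4 rose and 3 fell in the Figla knockout, 7 rose and 2 fell in the Stat3 knockout, and 2 rose and 3 fell in the libraries labelled Sub1 knockout. Ccne2, an S phase cyclin, rose to 299 TPM in the Stat3 knockout, against 13.3 TPM in wild type (log2 change 4.39), while Uhrf1, which guides maintenance of DNA methylation, fell to 51.9 TPM, against 325 TPM (-2.63). Of 22 other mitotic genes, 6 rose and 1 fell in the Stat3 knockout, with Cenpf at 296 TPM, against 46.8 TPM in wild type (2.64), and securin (Pttg1) at 54.3 TPM, against 219 TPM (-1.99). Markers of germ cells in early meiosis were called higher for 4 or 5 of 6 in each knockout, and their sums were 2858 to 3952 TPM in the knockouts, against 1316 to 1430 TPM in wild type. Oocyte growth markers were lower for 5 of 6, with sums of 419 to 814 TPM in the knockouts, against 8012 to 8283 TPM. The part of these shifts in the members' changes was not tested.

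Somatic markers differed among the 4 knockouts. Granulosa marker sums were 684 to 1413 TPM in the knockouts, against 841 to 883 TPM in day 11 wild type, and 3, 1, 0 and 0 of 9 tested were called higher in the Lhx8, Figla, Stat3 and Sub1-labelled groups, with 1 of 9 lower in the Figla and in the Sub1-labelled group. Macrophage markers were called higher for 8, 8, 0 and 9 of 9 in that order, with Csf1r, Ptprc and Adgre1 at 0 in wild type. In the Stat3 knockout, which held the highest Top2a, the macrophage sum was 28.2 to 41.2 TPM, against 19.5 to 29.2 TPM in wild type, and 0 of 9 granulosa and 0 of 6 stroma markers were called. Stroma marker sums were 830 to 859 TPM in the Lhx8 knockout (3 of 6 higher), 507 to 558 TPM in the Figla knockout (2 of 6 higher), 554 to 582 TPM in the Stat3 knockout and 513 to 519 TPM in the libraries labelled Sub1 knockout (0 of 6 in both), against 511 to 545 TPM in wild type. Endothelium markers summed to 63.8 to 86.1 TPM in the Figla knockout and 12.9 to 13.1 TPM in the Lhx8 knockout, against 2.75 to 4.2 TPM in wild type, with 1 and 2 of 3 called higher. Tek, 1 of these 3, was the gene most like Aurka over all groups (r = 0.87). Whether endothelium sums came from endothelial cells was not tested. The part of these markers in the members' changes was not tested.

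The 15 knockouts of day 13 share 2 wild-type libraries as their control. In 5 of them Top2a rose, and in the Dynll1 and Tbpl2 knockouts this was the largest change of any member in the 33 comparisons on the TPM scale. The Dynll1 knockout (Dynll1 encodes a dynein light chain) had 5 members higher and 2 lower, where 37.7% of all genes were called higher and 10.4% lower. The knockout of Tbpl2, which encodes the TBP-like factor of oocytes, had 2 members higher and 1 lower (22.8% and 6.35% of all genes). The knockout of Nobox, which encodes an oocyte homeobox factor, had 2 higher and 3 lower (30.0% and 8.50%). Shares of all genes called higher were thus near or above the members' share in the Nobox and Tbpl2 knockouts.

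Top2a had 430.0 and 410.0 TPM in the Dynll1 knockout, 293 and 299 TPM in the Tbpl2 knockout, 114 and 99.8 TPM in the Ybx3 knockout, 82.1 and 105 TPM in the Nobox knockout and 59.4 and 59.5 TPM in the libraries labelled Ccnk knockout, against 10.1 and 8.89 TPM in day 13 wild type. None of these 10 knockout libraries overlapped wild type. The log2 changes were 5.33, 4.82, 3.36, 3.16 and 2.53 (SE 0.16 each; limma, adjusted p 8.8e-20 to 4.0e-11), ratios of means of 44.1, 31.1, 11.2, 9.82 and 6.25. The Ybx3 knockout, whose target encodes a cold shock RNA-binding protein, had no other member called (1 of 10, where 17.9% of all genes were called). After rescaling Aspm (-1.14) and Birc5 (-1.01) were called there as well, with a scale shift of 0.34. In the libraries labelled Ccnk knockout 2 members were called (6.14% of all genes), the other being Aspm.

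Bub1 rose with Top2a in the Tbpl2 knockout (215 and 213 TPM, against 83.8 and 79.6 TPM in wild type; 1.38 ± 0.13) and in the Dynll1 knockout (194 and 201 TPM; 1.26 ± 0.13), with adjusted p-values (limma) of 3.5e-09 and 6.5e-09. Bub1b rose in the Dynll1 knockout to 179 and 183 TPM, against 59.6 and 61.8 TPM in wild type (1.56 ± 0.28, adjusted p = 2.1e-05). Cenpe rose there to 33.0 and 35.6 TPM, against 13.0 and 13.3 TPM (1.32 ± 0.18, adjusted p = 5.6e-07), and in the Nobox knockout to 26.7 and 28.9 TPM (1.02 ± 0.18, adjusted p = 3.0e-05). These calls rest on the scale. After rescaling, which moves the Dynll1 comparison by 0.65, Bub1 (0.62), Bub1b (0.92) and Cenpe (0.70) were not called there, nor were Bub1 in the Tbpl2 knockout (0.95, shift 0.44) and Cenpe in the Nobox knockout (0.47, shift 0.58). The Cenpe call in the Nobox knockout was also lost without its replicate 2 (0.97).

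Ccna2, the S phase cyclin, was called higher in 1 of the 19 knockouts, Dynll1, where it rose to 157 and 158 TPM, against 44.5 and 55.1 TPM in wild type (1.65 ± 0.18; limma, adjusted p = 1.1e-08). Birc5 fell to 60.1 and 66.2 TPM in the Dynll1 knockout and to 58.7 and 46.6 TPM in the Nobox knockout, against 397 and 369 TPM in wild type (log2 changes -2.58 and -2.85). Ube2c had 260.1 and 262 TPM in the Dynll1 knockout and 179.8 and 199 TPM in the Nobox knockout, against 1046 and 1161 TPM in wild type (-2.07 and -2.53). The Tbpl2 knockout differed in this respect. Birc5 stood at 219 TPM in both of its libraries (-0.80) and Ube2c at 673 and 683 TPM (-0.70), both below wild type but short of the fold needed, and both were called after rescaling (-1.24 and -1.14).

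Aspm was called lower in 6 of the 15 day 13 knockouts. It had 9.86 and 8.06 TPM in the Nobox knockout, 10.7 and 12.6 TPM in the Tbpl2 knockout, 13.7 and 14.7 TPM in the libraries labelled Ccnk knockout, 14.6 and 14.3 TPM in the Noto knockout and 15.4 and 14.0 TPM in the Thap7 knockout, against 34.3 and 32.4 TPM in wild type. Its log2 changes there were -1.79, -1.45, -1.18, -1.15 and -1.13 (SE 0.23 each; limma, adjusted p 3.6e-07 to 0.0035). In the Noto and Thap7 knockouts it was the only member called, with 1 of 10 each, where 2.23% and 2.74% of all genes were called. The Thap7 call was lost without its replicate 2 (adjusted p = 0.053). In the Dynll1 knockout Aspm had 19.2 and 14.8 TPM (-0.94), and it was called lower there after rescaling (-1.56) and without Dynll1 replicate 1 (-1.12). In the Noto knockout Top2a had 18.5 and 21.5 TPM, against 10.1 and 8.89 TPM, just short of a call, and it was called without Noto replicate 1 or wild-type replicate 1.

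The Sohlh1 knockout, without a helix-loop-helix factor of early oocytes, had 2 libraries that differed widely. Called lower were 6 members and higher 0, where 13.4% of all genes were lower and 22.3% higher. Aspm had 5.31 and 1.62 TPM, against 34.3 and 32.4 TPM in wild type (-3.08), Birc5 66.1 and 140.3 TPM, against 397 and 369 TPM (-1.98), and Ube2c 430.0 and 344 TPM, against 1046 and 1161 TPM (-1.52), with adjusted p-values (limma) of 4.6e-10 or less. The spread behind these p-values was shared over all in vitro groups and was not taken from the 2 Sohlh1 libraries alone. After rescaling Bub1 (-1.34) and Tpx2 (-1.28) were called lower as well, with a scale shift of 0.36. The calls of Aurka (19.9 and 70.6 TPM, against 97.7 and 92.9 TPM), Bub1b (47.0 and 13.4 TPM, against 59.6 and 61.8 TPM) and Ccna2 (25.8 and 13.9 TPM, against 44.5 and 55.1 TPM) each rested on 1 library. Aurka changed by -0.43 without replicate 1, and Bub1b by -0.36 and Ccna2 by -0.92 without replicate 2. Top2a had 11.6 and 16.0 TPM, against 10.1 and 8.89 TPM, and was not called (0.48). Markers of other cells moved with these values. Stroma markers summed to 96.6 and 1903 TPM in the Sohlh1 knockout, against 9.51 to 12.2 TPM in wild type (6 of 6 higher), endothelium markers to 101 to 116 TPM, against 8.43 to 12.3 TPM (1 of 3 higher, 1 lower), and the 1 erythroid marker measured to 80.2 to 89.0 TPM, against 0. Macrophage markers were higher for 7 of 9, but almost all of their summed TPM was in 1 library, as given above. Oocyte markers summed to 1094 to 1600 TPM, against 56257 to 57630 TPM, with 5 of 6 lower. The part of these markers in the members' changes was not tested. Without the Sohlh1 libraries in the fit, all 48 calls were the same. These are the calls of the other knockouts against wild type, of the 2 wild-type days and of incompetent GV against day 13 oocytes.

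In the other 7 day 13 knockouts 0 members were called by limma. The share of all genes called was 3.19% for Kdm1b, 1.88% for Foxr1, 1.08% for Mef2b, 1.24% for Sfr1, 0.593% for Hes6, 0.114% for Ell3 and 0.504% for Tcf25. Top2a averaged 9.36 TPM (Ell3) to 18.1 TPM (Foxr1) in these groups, against 9.52 TPM in wild type. Aurka averaged above wild type in all 7, from 113 TPM in the Kdm1b knockout to 187 TPM in the Sfr1 knockout, against 95.3 ± 3.38 TPM (SD, n = 2), with changes of 0.24 to 0.96 that were not called.

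**Figure D3:**
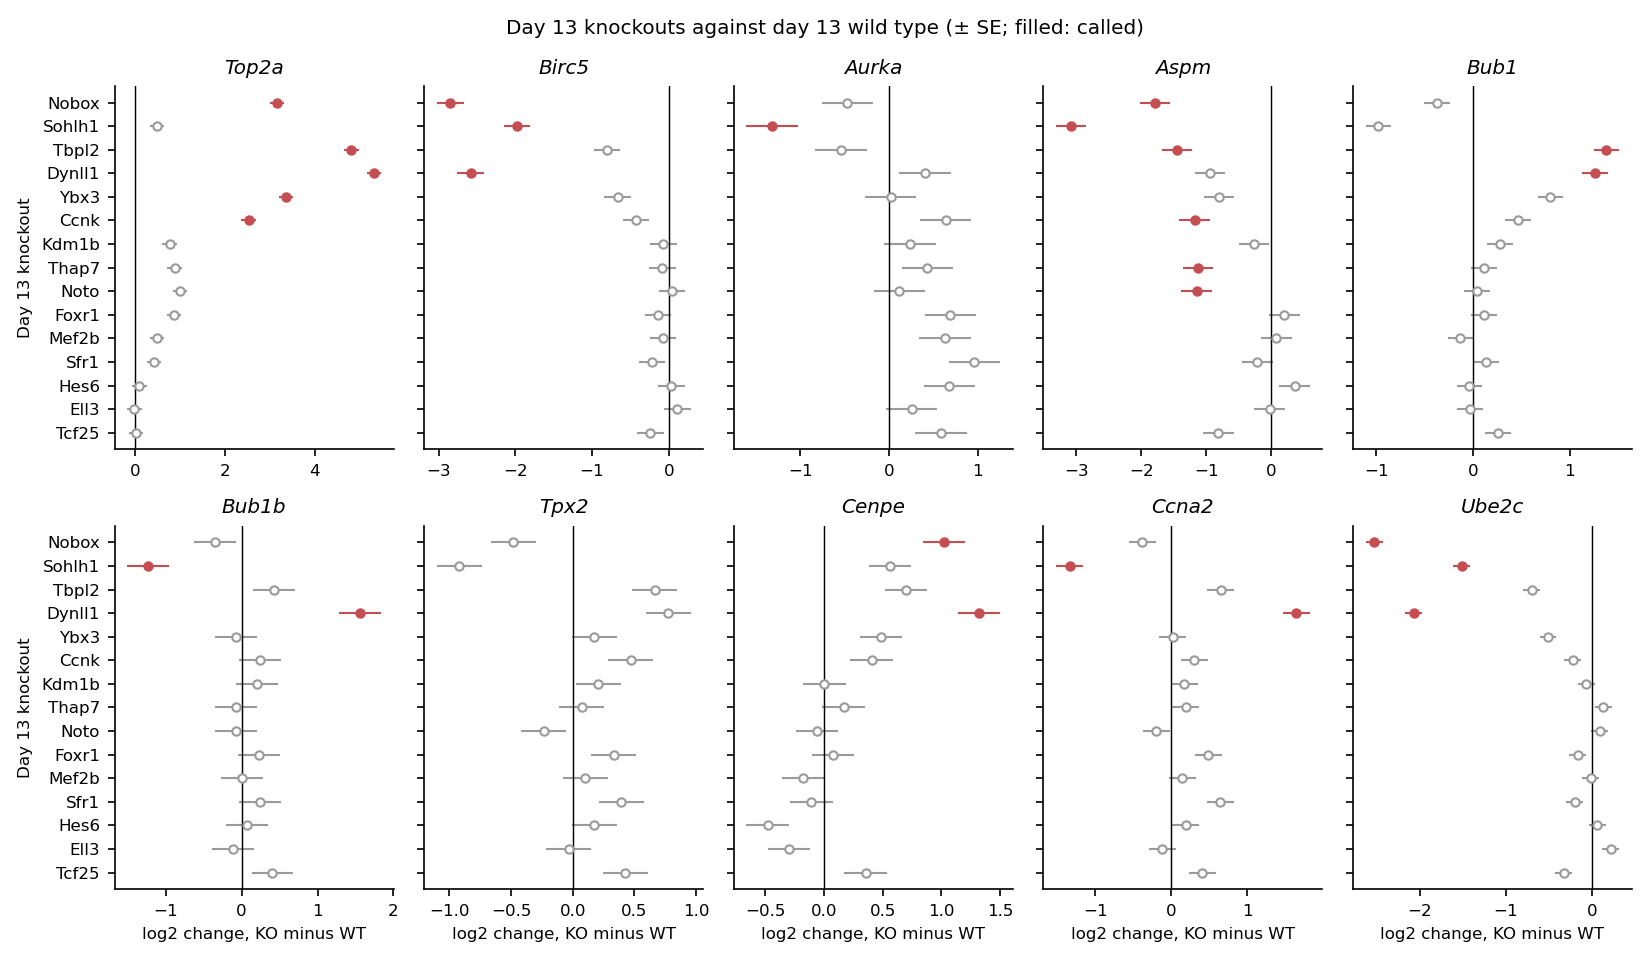
Log2 change (knockout minus wild type, TPM + 1) with its SE of the 10 genes in 15 day 13 knockouts, filled where called. Top2a lies far to the right in the Dynll1 and Tbpl2 knockouts, while Birc5, Aspm and Ube2c lie to the left in the Nobox knockout.

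The differences between knockouts were tested by setting each against the mean of the other 14. In the Dynll1 knockout 7 members were called (39.9% of all genes), with Top2a 3.98 ± 0.12, Bub1b 1.57 ± 0.20 and Ccna2 1.56 ± 0.13 higher and Birc5 -2.06 and Ube2c -1.66 (limma, adjusted p 1.7e-07 or less). Bub1 (1.12) and Cenpe (1.13) were the other 2, and both calls were lost after rescaling (0.66 and 0.69). In the Tbpl2 knockout 2 were called (16.5% of all genes), Top2a (3.44) and Bub1 (1.24), and in the Ybx3 knockout 1 (9.10%), Top2a (1.88). In the Nobox knockout 4 were called (27.4%), with Top2a higher (1.66) and Birc5 (-2.34), Aspm (-1.05, not called without Nobox replicate 2, at -0.92) and Ube2c (-2.16) lower. In the Sohlh1 knockout 9 were called (30.5%), all lower, with Cenpe not called. Of these 9, Top2a, Birc5 and Aurka were not called without Sohlh1 replicate 1 (-0.99, -0.87 and -0.76), nor were Bub1b, Tpx2 and Ube2c without replicate 2 (-0.55, -0.70 and -0.90). Top2a was called lower than in the other 14, whose mean holds the high Dynll1 and Tbpl2 values, in the Ell3 knockout (-1.75; 1 member, where 7.83% of all genes were called), the Tcf25 knockout (-1.71; 1 member, 7.95%), the Hes6 knockout (-1.63; 2 members, 8.32%, the other being Aspm, higher by 1.25), the Sfr1 knockout (-1.28; 1 member, 3.28%) and the Mef2b knockout (-1.21; 1 member, 4.05%), the Mef2b call being lost after rescaling. Aspm was called higher in the Foxr1 knockout (1.09; 1 member, where 2.54% of all genes were called), a call lost without the Sohlh1 libraries (0.92). Rescaling also added calls in these tests. It added Aspm (1.17), Birc5 (1.16) and Ube2c (1.13), all higher, in the Ell3 knockout, which made 4 members, and Aurka (-1.13), Bub1 (-1.03) and Tpx2 (-1.05), all lower, in the Nobox knockout, which made 7. It further added Birc5 in the Hes6 knockout (1.09), Aspm in the Mef2b knockout (1.17) and Aurka in the Tbpl2 knockout (-1.05). With a pseudocount of 0.1, Top2a in the libraries labelled Ccnk knockout (1.03) and Aspm in the Mef2b knockout (1.01) were called higher.

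Over all 19 knockouts Top2a was called higher in 9 and lower in 0, and Bub1 higher in 6 and lower in 0. Birc5 and Ube2c were each called lower in 7 and higher in 0, and Aspm lower in 6 and higher in 0. Tpx2 was called in 0 of the 19, with changes of -0.92 to 0.94, and after rescaling in 2 of them, Nobox (-1.05) and Sohlh1 (-1.28). Aurka was called lower after rescaling in the Nobox knockout as well (-1.04). The comparisons share their wild-type libraries by day, so these counts are not independent.

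Cell type markers moved beside the day 13 changes too. Oocyte marker sums were 880 to 893 TPM in the Dynll1 knockout, 2285 to 2333 TPM in the Nobox knockout, 10692 to 10735 TPM in the Tbpl2 knockout and 31595 to 32318 TPM in the Ybx3 knockout, against 56257 to 57630 TPM in day 13 wild type, with 5, 5, 5 and 0 of 6 called lower. Stroma marker sums were 203 to 205 TPM, 264 to 290 TPM, 510 to 535 TPM and 562 to 606 TPM in the same order, against 9.51 to 12.2 TPM, with 5, 6, 6 and 6 of 6 called higher. Granulosa marker sums were 307 to 337 TPM in the Dynll1 knockout, 804 to 897 TPM in the Tbpl2 knockout, 632 to 645 TPM in the Nobox knockout and 1197 to 1245 TPM in the Ybx3 knockout, against 32.1 to 32.2 TPM in day 13 wild type, and 7, 8, 7 and 8 of 9 tested were called higher. They were also higher for 7 of 9 in the Kdm1b knockout (278 to 283 TPM), where Top2a had 15.2 and 18.6 TPM. Day 11 wild type held a granulosa sum of 841 to 883 TPM with 38.6 and 48.5 TPM of Top2a, and the part of these markers in the rise of Top2a was not tested. Macrophage markers were higher for 7 of 9 in the Dynll1 and Ybx3 knockouts and for 0 of 9 in the Tbpl2 and Nobox knockouts. Early meiosis markers were higher for 5 of 6 in the Dynll1, Tbpl2 and Nobox knockouts and 4 of 6 in the Ybx3 knockout. None of these markers' parts in the members' changes was tested. The shares of all genes called in either direction were 48.2% in the Dynll1 knockout, 29.2% in the Tbpl2 knockout and 38.5% in the Nobox knockout. Of 17 DNA replication genes 9 rose and 2 fell in the Dynll1 knockout, 7 rose and 1 fell in the Tbpl2 knockout and 7 rose and 2 fell in the Nobox knockout. Of 22 other mitotic genes 7 rose and 2 fell in the Dynll1 knockout, with the anaphase activator Cdc20 at 274 TPM, against 29.1 TPM in wild type (3.19), and 2 rose and 7 fell in the Nobox knockout. Mos, which holds the egg at metaphase II, was at 0.47 TPM in the Dynll1 knockout, against 155 TPM (-6.81).

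Along the DIOLs.S course, from day 1 to day 14, Top2a was lower at each later day, while Birc5, Aspm and Ube2c had their lowest means on day 5 and their highest on day 14. Top2a had 502 and 577 TPM on day 1, 174 and 161 TPM on day 3, 98.6 and 113 TPM on day 5, 66.4 and 45.8 TPM on day 7 and 7.59 and 4.98 TPM on day 14. The days did not overlap. The steps of day 3 against day 1 (-1.68 ± 0.21; limma, adjusted p = 1.9e-06) and day 14 against day 7 (-2.97 ± 0.21, adjusted p = 4.6e-10) were called, and those between them (-0.66 and -0.92) were not, although the step from day 5 to day 7 was called without day 5 replicate 1 (-1.02) or day 7 replicate 1 (-1.19).

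From day 1 to day 3, 3 members fell and 0 rose (9.00% and 11.9% of all genes), the other 2 being Aurka (-1.08 ± 0.09) and Aspm (-1.22 ± 0.14, not called without day 3 replicate 2, at -0.99). After rescaling, 5 fell, with Bub1b (-1.07) and Ccna2 (-1.21) added and a scale shift of 0.22. From day 3 to day 5, 3 fell and 0 rose (4.14% and 3.81% of all genes). Ccna2 had 34.5 and 44.9 TPM on day 5, against 139 and 113 TPM on day 3 (-1.64 ± 0.15), Aspm 5.09 and 6.03 TPM, against 18.6 and 13.5 TPM (-1.36 ± 0.14), and Birc5 44.6 and 31.2 TPM, against 79.1 and 72.9 TPM (-1.01 ± 0.13), with adjusted p-values (limma) of 1.8e-05 or less. The Birc5 call was lost without day 3 replicate 1 (-0.95) or day 5 replicate 2 (-0.76). The lowest means of Aurka, Bub1b, Tpx2 and Ccna2 in this course were on day 5 too. There Tpx2 overlapped day 7, and Ccna2 overlapped days 7 and 14.

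From day 5 to day 7, 2 members were called (8.06% of all genes). Birc5 rose to 107 and 141 TPM (1.69 ± 0.13; limma, adjusted p = 4.3e-08) and Ube2c to 705 and 859 TPM, against 368 and 357 TPM on day 5 (1.10 ± 0.15, adjusted p = 2.5e-05), a call lost without day 7 replicate 2 (0.96). From day 7 to day 14, 2 rose and 2 fell (7.78% and 32.8% of all genes). Birc5 reached 498 and 506 TPM on day 14 (2.02 ± 0.13, adjusted p = 1.7e-10), and Aspm 78.5 and 84.2 TPM, against 11.1 TPM in both day 7 libraries (2.76 ± 0.14, adjusted p = 4.6e-12). Cenpe fell to 8.79 and 10.6 TPM, against 23.1 and 23.8 TPM on day 7 (-1.20), a call lost after rescaling (-0.73, scale shift -0.50). Ube2c stood at 1409.8 and 1464 TPM on day 14 (0.88) and was called after rescaling (1.38), as was Aurka (0.95, rescaled 1.45). Granulosa markers were lower on day 14 for 8 of 10, with sums of 24.2 to 61.3 TPM, against 452 to 2008 TPM on day 7, where the 2 libraries differed, and stroma markers for 6 of 6. Their part in the fall of Top2a was not tested. Of the 4 stem cell markers measured, 3 fell between days 1 and 3, together with 5 of 17 DNA replication genes and 7 of 22 other mitotic genes.

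In DIOLs of days 5 to 25 the mean of Top2a was lower and that of Aspm higher on each later day. This course was not tested against that of DIOLs.S. Top2a had 39.0 and 34.8 TPM on day 5, 21.5 and 22.3 TPM on day 10, 14.5 and 14.1 TPM on day 15 and 7.52 and 11.4 TPM on day 25, and no step was called (-0.72, -0.58 and -0.57). Aspm had 3.97 and 4.62 TPM, 11.7 and 11.6 TPM, 18.7 and 18.8 TPM, and 101 and 99.2 TPM on the same days. Its rise was called from day 5 to day 10 (1.26 ± 0.14; limma, adjusted p = 4.3e-07) and from day 15 to day 25 (2.36 ± 0.14, adjusted p = 1.2e-09), the step from day 15 holding 1 called member (1 of 10, where 7.57% of all genes were called). Birc5 had 383 and 364 TPM on day 10, against 113 and 122 TPM on day 5 (1.66 ± 0.13, adjusted p = 5.5e-09), so 2 members were called at this step (23.1% of all genes). From day 10 to day 15, 0 members were called (3.64% of all genes). Ube2c stayed between 854 and 1123 TPM in the 8 libraries. Granulosa marker sums were 2.95 to 28.4 TPM in all DIOLs, and stroma sums were 364 to 373 TPM on day 5 and at most 25.2 TPM later. Macrophage marker sums were 622 to 647 TPM on day 5, 56.0 to 57.6 TPM on day 10, 44.3 to 45.8 TPM on day 15 and 156 to 158 TPM on day 25, and 1 of 6 tested was called lower at the first step and 1 of 6 higher at the last. The part of these markers in the rise of Birc5 and Aspm was not tested.

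**Figure D4:**
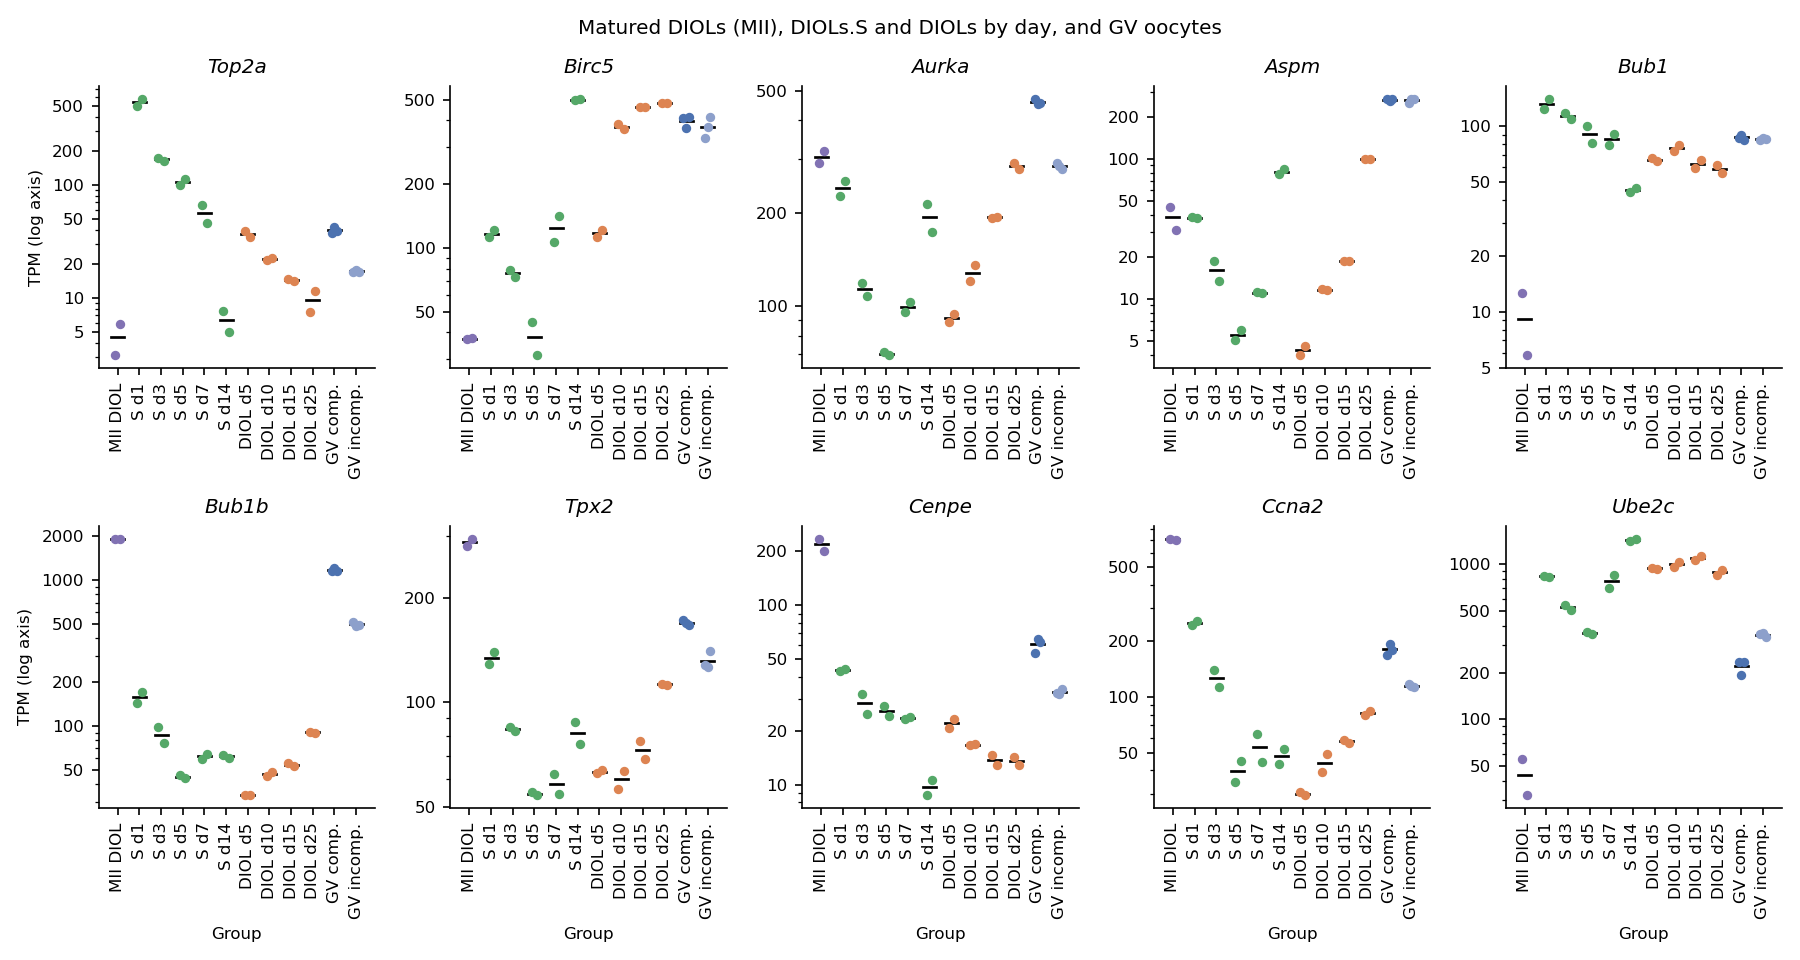
TPM of each library (points) and group mean (short lines) of the 10 genes on a log axis, in MII DIOL, DIOLs.S (S) and DIOLs by day, and GV oocytes. Top2a declines along both courses, and Bub1b, Tpx2, Cenpe and Ccna2 peak in MII DIOL while Birc5, Bub1 and Ube2c drop there.

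Incompetent GV oocytes held more of most spindle genes than day 13 in vitro oocytes and less Ube2c. Called higher were 6 members and lower 1, where 15.2% of all genes were higher and 18.4% lower. Bub1b had 516, 484 and 490.1 TPM in incompetent GV oocytes, against 59.6 and 61.8 TPM in day 13 wild type (3.01 ± 0.21; limma, adjusted p = 2.7e-16). Aspm had 252, 267 and 268 TPM, against 34.3 and 32.4 TPM (2.94 ± 0.18, adjusted p = 1.3e-17), and Aurka 292, 284 and 278 TPM, against 97.7 and 92.9 TPM (1.57 ± 0.22). Cenpe (1.26), Ccna2 (114.7 TPM, against 49.8 TPM) and Tpx2 (1.17) rose in the same comparison. Ube2c had 355, 360.5 and 340.2 TPM, against 1046 and 1161 TPM (-1.65 ± 0.12, adjusted p = 1.0e-15). Birc5 overlapped between the groups (-0.05). Bub1 (0.06) was not called, and Top2a (0.79) was called after rescaling alone (1.01, scale shift -0.23). This step also compares oocytes of the animal with cultured ones, which cannot be told apart from stage. Of 14 genes of meiotic division, 6 were called higher and 0 lower.

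Competent against incompetent GV oocytes showed 2 members called (9.96% of all genes), both higher. The competent columns are named 3w and the incompetent ones 2w, so competence and what this label marks cannot be told apart. Bub1b had 1146, 1213 and 1147 TPM in competent oocytes, against 516, 484 and 490.1 TPM in incompetent ones (1.23 ± 0.08; limma, adjusted p = 1.3e-10). Top2a had 37.1, 42.1 and 39.0 TPM, against 16.9, 17.8 and 16.7 TPM (1.16 ± 0.17, adjusted p = 1.8e-05). For both genes every competent library was above every incompetent one. Cenpe (0.86), Aurka (0.69), Ccna2 (0.64) and Tpx2 (0.36) had values above, and Ube2c (-0.68) below, without reaching the fold needed. Aspm (0.02), Birc5 (0.10) and Bub1 (0.03) overlapped between the stages. Granulosa marker sums were 40.6 to 115 TPM in competent oocytes, against 30.0 to 31.8 TPM in incompetent ones, with 3 of 10 called higher. Oocyte marker sums were 23299 to 25142 TPM in competent oocytes, against 34865 to 40930 TPM in incompetent ones. What part these markers had in these changes was not tested.

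Late DIOLs held less of several of these messages than incompetent GV oocytes did. In DIOLs of day 25 against incompetent GV oocytes 1 member was called higher and 3 lower, where 12.8% of all genes were higher and 13.5% lower. Bub1b had 91.2 and 89.8 TPM in day 25 DIOLs, against 516, 484 and 490.1 TPM in incompetent GV oocytes (-2.44 ± 0.09; limma, adjusted p = 1.6e-14), Aspm 101 and 99.2 TPM, against 252, 267 and 268 TPM (-1.38), and Cenpe 14.3 and 12.9 TPM, against 32.6, 32.0 and 34.3 TPM (-1.22). Ube2c had 854 and 919 TPM, against 355, 360.5 and 340.2 TPM (1.33 ± 0.14, adjusted p = 7.2e-08). Aurka overlapped between them, with means of 284.4 TPM in day 25 DIOLs and 284.6 TPM in incompetent GV oocytes. Birc5 (0.38), Tpx2 (-0.22), Ccna2 (-0.49), Bub1 (-0.52) and Top2a (-0.82) did not overlap and were not called, except that Top2a was called without day 25 replicate 2 (-1.09). In DIOLs.S of day 14 against the same GV oocytes 1 member was higher and 5 lower (10.9% and 20.2% of all genes), namely Ube2c (2.03) on the one side and Bub1b (-2.99), Aspm (-1.68), Cenpe (-1.67), Top2a (-1.34) and Ccna2 (-1.25) on the other. Both comparisons share their GV libraries. They also set induced MGA8 cells in culture against oocytes of the animal, so cell source, culture and stage cannot be told apart. Of 14 meiotic division genes 7 were lower in DIOLs of day 25 and 9 in DIOLs.S of day 14.

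MII DIOL against day 25 DIOLs had 8 members called, the most of the 33 comparisons, with 4 higher and 4 lower, where 19.8% of all genes were higher and 37.8% lower. Bub1b had 1919 and 1910.1 TPM in MII DIOL, against 91.2 and 89.8 TPM in day 25 DIOLs (4.39 ± 0.09; limma, adjusted p = 3.8e-19). Cenpe had 235 and 202 TPM, against 14.3 and 12.9 TPM (3.90 ± 0.13, adjusted p = 2.3e-16), and Ccna2 714 and 704 TPM, against 79.6 and 83.6 TPM (3.10 ± 0.15, adjusted p = 6.3e-14). These kinetochore, checkpoint and cyclin messages were 21.2, 16.0 and 8.68 times as high, with no overlap. Tpx2 had 282 and 296 TPM, against 113 and 112 TPM (1.35 ± 0.09). The protocol of MII DIOL also adds gonadal somatic cells, isolation of follicles and growth in vitro. In this comparison these steps cannot be told apart from maturation.

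Ube2c had 55.5 and 32.4 TPM in MII DIOL, against 854 and 919 TPM in day 25 DIOLs (-4.35 ± 0.15; limma, adjusted p = 4.1e-16). Birc5 had 37.1 and 37.5 TPM, against 481 and 484 TPM (-3.66 ± 0.13, adjusted p = 9.6e-16), and Bub1 12.5 and 5.83 TPM, against 61.6 and 56.1 TPM (-2.64 ± 0.19, adjusted p = 5.5e-11). Bub1 and Bub1b, both of the spindle checkpoint, thus went opposite ways. Aspm had 45.6 and 31.3 TPM, against 101 and 99.2 TPM (-1.38). Top2a had 3.09 and 5.79 TPM, against 7.52 and 11.4 TPM (-0.97), and was called without day 25 replicate 1 (-1.24) or MII replicate 2 (-1.33), while rescaling left a change of -0.13. The scales differ by -0.98 here. After rescaling Aspm was no longer called (-0.42), Aurka was called higher (1.07; 289.9 and 319 TPM, against 291 and 278 TPM), and the other 7 calls kept their direction, from -3.39 for Ube2c to 5.37 for Bub1b. Granulosa marker sums were 259 to 627 TPM in MII DIOL, against 4.94 to 9.87 TPM in day 25 DIOLs, with 7 of 10 called higher. Oocyte marker sums were 9942 to 10242 TPM in MII DIOL, against 57397 to 57542 TPM in day 25 DIOLs. What part these markers had in the members' changes was not tested. Poly(A) RNA was sequenced, so a change in the amount of an mRNA and a change in its poly(A) tail cannot be told apart.

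Against competent GV oocytes 2 members were higher in MII DIOL and 5 lower (18.3% and 31.9% of all genes). Ccna2 had 714 and 704 TPM in MII DIOL, against 169, 192 and 179 TPM in competent GV oocytes (1.97 ± 0.13; limma, adjusted p = 3.0e-11), and Cenpe 235 and 202 TPM, against 54.4, 64.9 and 62.5 TPM (1.83 ± 0.12, adjusted p = 1.5e-11). Lower were Birc5 (-3.38), Bub1 (-3.19), Top2a (-2.94), Aspm (-2.78) and Ube2c (-2.34). Granulosa markers were higher for 8 of 10 and lower for 2 of 10 in this comparison. Oocyte marker sums were 9942 to 10242 TPM in MII DIOL, against 23299 to 25142 TPM in competent GV oocytes. What part these markers had in the members' changes was not tested. Bub1b (0.71) and Tpx2 (0.77) were called after rescaling alone, Tpx2 at 1.65, with a scale shift of -0.89. The comparison also sets cultured cells against oocytes of the animal, and it shares the MII libraries with the one before. Of 22 other mitotic genes 9 were higher and 9 lower in MII DIOL against day 25 DIOLs, with Ccnb1 (cyclin B1) at 1468 TPM, against 121 TPM, and its kinase Cdk1 at 2.83 TPM, against 108 TPM. Of 11 subunits and activators of the anaphase-promoting complex, with which Ube2c works, 2 were higher and 6 lower, with Cdc27 at 325 TPM, against 17.8 TPM, and Fzr1 at 15.8 TPM, against 462 TPM.

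**Figure D5:**
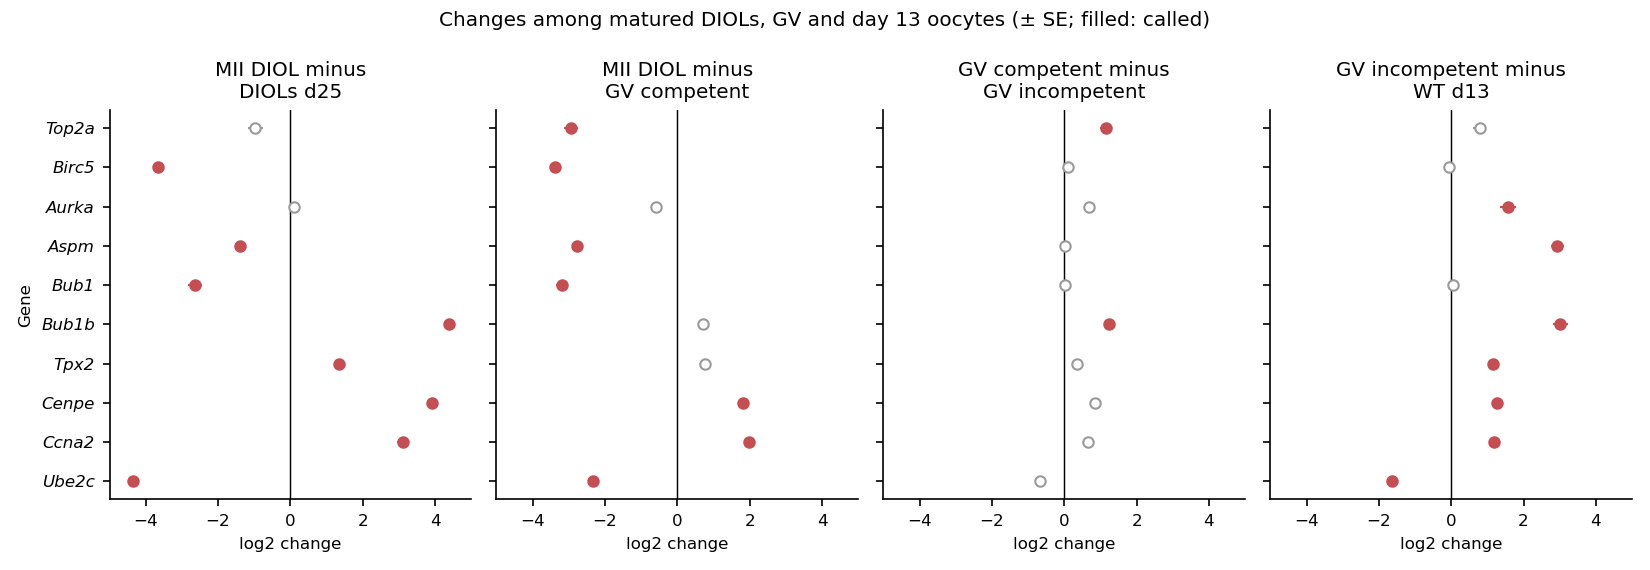
Log2 change (TPM + 1) with its SE of the 10 genes in 4 comparisons among MII DIOL, day 25 DIOLs, GV and day 13 wild-type oocytes, filled where called. In the panel of MII DIOL minus day 25 DIOLs, Bub1b lies at 4.39 and Ube2c at -4.35.

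Across the 33 group means the 45 pairs of members had a median Pearson r of 0.10 on the log2(TPM + 1) scale, and 21 pairs were negative. Tpx2 and Ccna2 (0.91), Bub1b and Tpx2 (0.90), Bub1b and Ccna2 (0.88), Top2a and Bub1 (0.78) and Aurka and Aspm (0.76) were most alike, and Cenpe and Ube2c (-0.81) least. Among the 21 in vitro groups Birc5 and Ube2c (0.95) were the closest pair, and Top2a ran against both (-0.76 with Birc5, -0.81 with Ube2c). Among the 12 DIOL and GV groups Bub1b and Tpx2 (0.93) were closest and Cenpe and Ube2c (-0.93) least alike. The points are means of groups from 1 study on 1 relative scale, so these values describe the groups. The gene most like each member over the 33 groups, among 9720 genes, was Mycn for Top2a (0.94), Gfer for Birc5 (0.93), Tek for Aurka (0.87), Fam63a for Aspm (0.90), Mettl16 for Bub1 (0.95), Smu1 for Bub1b (0.94), Ccna2 for Tpx2 (0.91), Taf4a for Cenpe (0.95), Kif20a for Ccna2 (0.92) and Necap2 for Ube2c (0.94).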

How the data were processed

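PolyA RNA was sequenced as strand-specific libraries, per the labels. Per the submitters' processing notes STAR 2.6.0, featureCounts 1.6.0 and mm10 were used, with no role given for any of them. The authors deposited TPM per gene symbol and library in a single table, used here up to an incomplete last row, which was dropped with 22 rows named as dates. A further 80 columns that match no sample were not used, nor were 3 samples (Pr-fol-P3) that match no column. GV columns, whose names add 3w or 2w, were matched by stage and replicate. Chromosomes of the members are those of GENCODE M21, and positions of the promoter windows are those of the RefSeq windows.

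Here log2(TPM + 1) was fitted with limma 3.58.1 in R 4.3.3 (trend and robust options), over the 42 in vitro libraries (12306 genes with at least 1 TPM in at least 2 libraries), over the 26 DIOL and GV libraries (11603 genes), and over all 68 for GV against day 13 oocytes (12689 genes). The spread was shared over the groups of a fit because most held 2 libraries. Scripts were tested on simulated data. By rule all 10 members could be named in every comparison; those not called are given in part, and as counts or ranges. Of each other gene list, counts are given, with examples from the up to 2 called genes per direction and comparison that changed most without overlap and averaged at least 10 TPM in the higher group, and for each member the most similar of genes reaching 10 TPM in a group. Replicate numbers did not pair the samples: deviations of same-numbered libraries correlated at -0.15 to 0.06 over 32 comparisons. Alternatives were a pseudocount of 0.1, no filter, a replicate block, TPM scaled again with median-of-ratios factors, a single model for every library, the fit without Sohlh1 libraries, and each library left out in turn. The members and lists were chosen with earlier results of these data known. The lists were measured in part, with 17 of 26 DNA replication genes and 22 of 35 other mitotic genes. The same holds for 14 of 21 meiotic division genes and 11 of 15 genes of the anaphase-promoting complex. Shares of all genes refer to the genes tested in a comparison.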

Additional observations from a re-analysis of the deposited data

How the results depend on the processing

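Of 96 calls of members in 33 comparisons, none changed direction under any alternative. All 96 held with a pseudocount of 0.1 (2 calls added), with no filter and with the replicate number as a block (0 added), and 88 held after rescaling by the median of ratios (19 added). The replicate block left the number of members called at 5 in the Stat3 knockout and at 8 in MII DIOL against day 25 DIOLs, and moved no count by more than 1.5 times. Rescaling gave 3 members called in the Ybx3 knockout (against 1) and 5 in DIOLs.S of day 3 against day 1 (against 3), and the pseudocount of 0.1 gave 2 in the Noto knockout (against 1). With 1 library left out the number called was 0 to 1 for the Thap7 knockout, 1 to 2 for the Noto knockout, 2 to 5 for DIOLs.S of day 3 against day 1, 1 to 3 for DIOLs.S of day 7 against day 5, and 1 to 4 over the 6 pairs of day 11 knockouts (2 in full). The lone library left in a group was then assumed to vary like the others. In all, 9 calls were lost in at least 1 such setting. The cause of these shifts was not tested. Of 3864 list counts under alternatives 3521 stayed within 1.5 times.

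With 2 libraries in most groups, unknown depth and a relative scale, small changes cannot be placed, and a member that was not called is not shown to be unchanged.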
